A study of Mus musculus with 4 samples.

Results

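The genes described here are 3 genes of catalytic DNA methyltransferases, Dnmt1, Dnmt3a and Dnmt3b, their catalytically inactive relative Dnmt3l, and Uhrf1, the partner of Dnmt1. They were chosen by symbol. Every probe set of the array whose annotated gene is 1 of these 5 was taken, which gave 5 of 12393 genes and 12 of the 22690 probe sets in the table: 5 for Dnmt3a, 2 each for Dnmt1, Dnmt3b and Uhrf1, and 1 for Dnmt3l. Expression was measured on 4 Affymetrix arrays in R1 cells, an established mouse embryonic stem cell line. In 2 samples the cells carried a lentiviral short hairpin RNA (shRNA) targeting Brg1, which powers nucleosome remodelling by SWI/SNF complexes, and in 2 control samples a lentiviral shRNA against the glucose transporter GLUT4. All 4 were infected and were harvested 67 h later, so lentivirus and shRNA are common to both groups. Per the series' design text each shRNA was introduced in duplicate infections. The labels name the target of each shRNA but not the number of hairpins, and all samples come from 1 cell line.

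Methylation of cytosine in CpG dinucleotides is set by DNMT3A and DNMT3B, the de novo methyltransferases. DNMT3L has no methyltransferase activity of its own and stimulates both of them. DNMT1 copies existing methylation to the new strand after replication, and UHRF1 binds hemimethylated CpG and brings DNMT1 there. In mouse embryonic stem cells the de novo enzymes are abundant, and their genes are known to be expressed more weakly in the naive than in the formative state of pluripotency.

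The promoter windows of the de novo enzymes and of Dnmt3l are shown because Dnmt3a and Dnmt3b were lower together in the knockdown and Dnmt3l was not. Each window runs from 250 bases before to 50 bases after an annotated start, 5′ to 3′ on the gene's strand, from RefSeq (build GRCm38.p6), in which all 5 genes had at least 1 entry. Capitals mark CpG. The windows are Dnmt3b (chr2:153649199-153649498, plus strand), the first of the 3 Dnmt3a starts with a window (chr12:3806730-3807029, plus strand), the Dnmt3a start 84.8 kb further into the gene (chr12:3891494-3891793, plus strand) and the first Dnmt3l start (chr10:78042037-78042336, plus strand). The RefSeq entry of the Dnmt3a gene begins upstream of its first window, at position 3801559.
Dnmt3b: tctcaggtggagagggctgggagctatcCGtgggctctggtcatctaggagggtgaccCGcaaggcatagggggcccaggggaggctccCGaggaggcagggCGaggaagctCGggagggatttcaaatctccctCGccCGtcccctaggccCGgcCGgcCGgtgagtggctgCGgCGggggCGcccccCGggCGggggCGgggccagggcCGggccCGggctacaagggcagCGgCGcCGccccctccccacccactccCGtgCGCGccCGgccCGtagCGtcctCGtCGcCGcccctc
Dnmt3a, first start: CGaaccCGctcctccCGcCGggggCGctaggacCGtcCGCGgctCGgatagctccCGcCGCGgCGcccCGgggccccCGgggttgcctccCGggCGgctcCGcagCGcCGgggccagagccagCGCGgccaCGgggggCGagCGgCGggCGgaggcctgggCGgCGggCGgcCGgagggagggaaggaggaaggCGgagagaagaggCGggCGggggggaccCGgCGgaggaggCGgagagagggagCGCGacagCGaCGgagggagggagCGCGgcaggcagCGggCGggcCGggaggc
Dnmt3a, internal start: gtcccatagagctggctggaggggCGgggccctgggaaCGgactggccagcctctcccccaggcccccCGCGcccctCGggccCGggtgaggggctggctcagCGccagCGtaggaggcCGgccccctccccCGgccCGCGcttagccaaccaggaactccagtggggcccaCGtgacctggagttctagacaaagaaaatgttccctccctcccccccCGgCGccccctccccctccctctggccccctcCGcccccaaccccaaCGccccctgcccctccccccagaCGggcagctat
Dnmt3l, first start: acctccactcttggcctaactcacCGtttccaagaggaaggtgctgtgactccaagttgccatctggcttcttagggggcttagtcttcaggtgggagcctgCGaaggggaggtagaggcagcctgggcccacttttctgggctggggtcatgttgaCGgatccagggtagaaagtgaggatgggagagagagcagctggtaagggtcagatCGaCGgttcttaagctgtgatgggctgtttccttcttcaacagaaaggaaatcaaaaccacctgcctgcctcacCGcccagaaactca

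The Dnmt3b window held 30 CpG and the first Dnmt3a window 46, numbers reached by 11.7% and 1.65% of all 32851 promoter windows, whose median was 7. The internal Dnmt3a window held 18 CpG, which 29.7% of windows reached. The 3 Dnmt3l windows held 6, 4 and 3, fewer than the median. Dnmt1 and Uhrf1, which did not pass the test, each had a window with 33 CpG, reached by 8.56% of all windows. The other windows held 2 and 12 CpG for Dnmt1 and 12 for Uhrf1. Of all windows, 85.9% reached 2 CpG and 39.6% reached 12. The GC box GGGCGG, counted on both strands, occurred 4 times in the Dnmt3b window and 6, 7 and 2 times in the 3 Dnmt3a windows, of which the first 2 overlap. It occurred 1, 2 and 0 times in the 3 Dnmt3l windows, 0, 0 and 2 times in those of Dnmt1, and 1 and 3 times in those of Uhrf1, and 35.7% of all windows hold at least 1. The E-box CACGTG, the same on both strands, occurred once in the internal Dnmt3a window and once in the second Dnmt3l window, and in 7.15% of all windows. Which start R1 cells use was not measured.

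The arrays had been scaled by the authors to a common level, so that the mean without the lowest and highest 2% of probe sets was 200.1 signal units on each. Smarca4, which encodes Brg1, had 652 and 622 signal units in the knockdown, against 1187 and 1214 in the control, and fell by 0.89 ± 0.08 in log2 units (SE; limma's adjusted p = 0.000985). Its second probe set gave -0.85 ± 0.13 (adjusted p = 0.00617). The probe sets of Slc2a4, the GLUT4 gene, were below the filter on low values. All 10 embryonic stem cell markers were above it, with summed signals of 20674 and 20354 in the knockdown, against 20151 and 19864 in the control; Nanog (log2 difference 0.87) and Fgf4 (0.52) rose and Lin28a (-0.38) fell. The 9 fibroblast markers, for feeder cells, summed to 195 and 249 in the knockdown, against 194 and 180 in the control, with Col1a1 between 5.9 and 16 on every array. Of the 2 tested, Acta2 differed by 0.33 and Thy1 by -0.48, and neither passed (limma, adjusted p = 0.171 and 0.131). Acta2 had 103.7 and 119.5 signal units in the knockdown, against 92.2 and 77.5 in the control. Below the filter, Col3a1, Postn, Dcn, S100a4 and Col1a2 differed by 0.50, 0.30, 0.30, 0.16 and 0.12. Lum and Col1a1 differed by -0.10 and -0.066. The 7 primitive endoderm markers summed to 203 and 255 in the knockdown, against 175 and 189 in the control, and of the 2 tested Foxa2 rose (0.94, adjusted p = 0.0226) and Dab2 did not pass (-0.12, adjusted p = 0.587); of those below the filter, Gata6 differed by -0.20 and Pdgfra by -0.034, and Sox7, Gata4 and Sox17 by 0.46, 0.43 and 0.33. The 5 trophectoderm markers summed to 152 and 168 in the knockdown, against 73.9 and 94.3 in the control, and of the 2 tested Hand1 rose (0.80, adjusted p = 0.0243) and Eomes did not pass (0.32, adjusted p = 0.263). In the control, Foxa2 had 9.9 and 16.3 signal units and Hand1 had 18.9 and 21.6. These control signals were below the filter level of 23.9 units, so both genes were tested only through their knockdown signals. The part of these marker shifts in the results below was not tested, and in bulk RNA fewer cells of a type and less RNA per cell cannot be told apart.

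The comparison asked which of the 5 genes differ when Brg1 is knocked down. Both de novo methyltransferase genes fell, while neither the maintenance genes Dnmt1 and Uhrf1 nor the cofactor gene Dnmt3l passed the test. All 12 probe sets lay above the filter (23.9 signal units) and were tested. With limma, 4 of the 12 were lower in the knockdown at an adjusted p under 0.05, both of Dnmt3b and the 2 brightest of Dnmt3a, 0 were higher and 8 did not pass. Of all 13576 probe sets tested, 3.37% were lower, 5.76% higher and 9.13% called in either direction. The background counts rest on single arrays: 782 were higher and 458 lower with all 4, against 427 and 219 without knockdown replicate 2, 377 and 174 without control replicate 1, and 491 and 174 without control replicate 2. Without knockdown replicate 1 the lower count was 783. The 4 member calls were kept without each array in turn; 3 of them were lost, with the direction kept, when the arrays were scaled to their spike-ins. At an unadjusted p under 0.05 there were 7 of the 12, beside 28.2% of all probe sets tested. The arrays of the groups did not overlap in 9 of the 12, where 58.4% of all tested probe sets had no overlap.

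**Figure D1:**
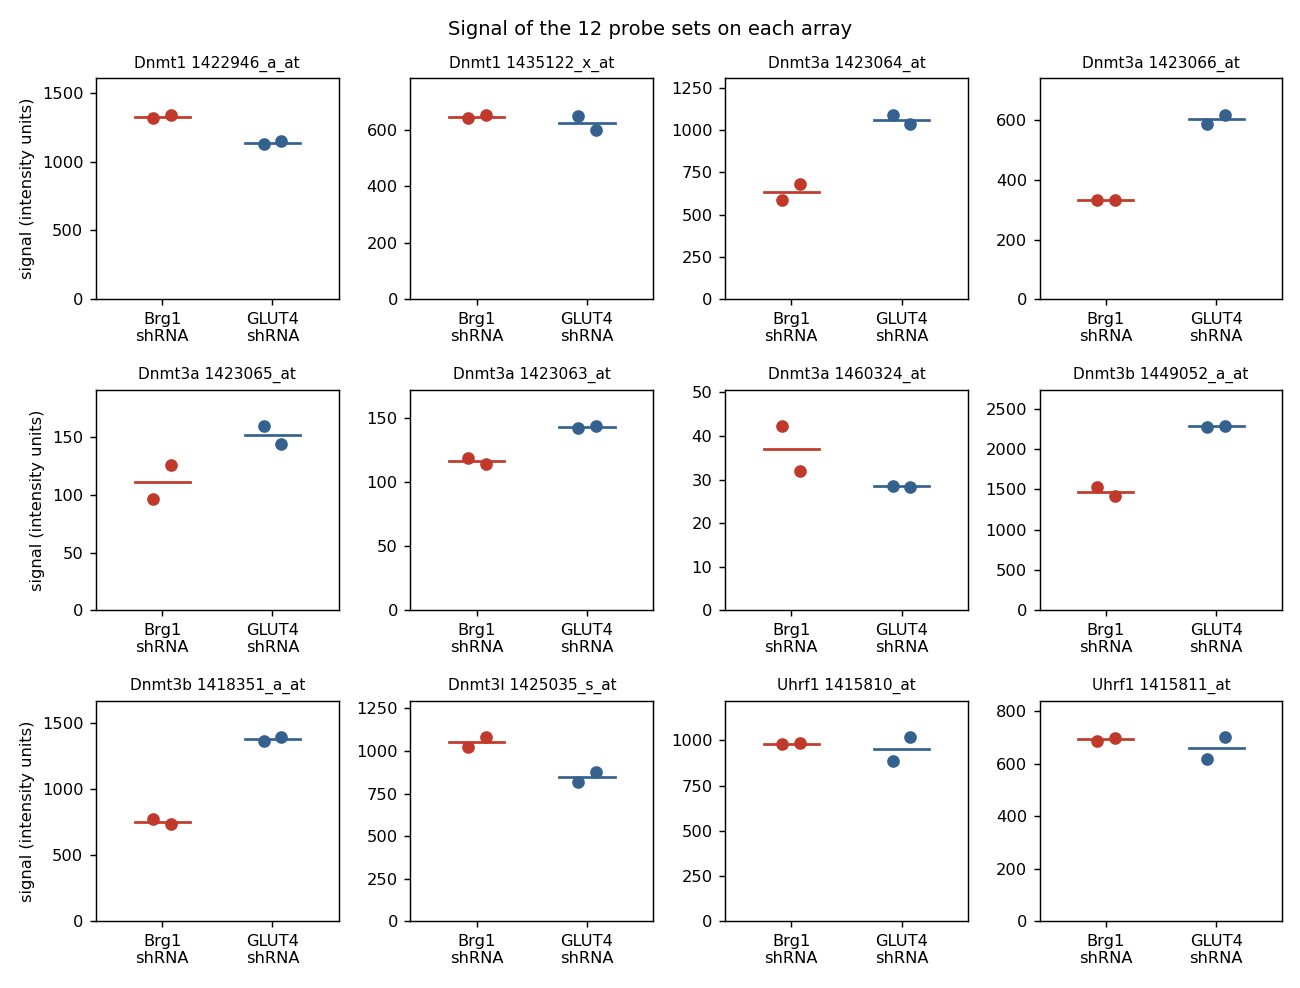
Signal of each of the 12 probe sets (y axis, intensity units from 0; each panel has its own scale) on the 2 Brg1 shRNA arrays (left, red) and the 2 GLUT4 shRNA arrays (right, blue). Points are arrays and lines are group means; for Dnmt3b and the first 2 Dnmt3a panels both knockdown points lie well below both control points, and for Uhrf1 the groups overlap.

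Dnmt3b was read by 2 probe sets. The brighter one, 1449052_a_at, had 1532 and 1414 signal units in the knockdown, against 2282 and 2284 in the control. The other, 1418351_a_at, had 771 and 737 in the knockdown, against 1362 and 1390 in the control. In both, the knockdown arrays lay below the control arrays by several times the gap between arrays of a group. The knockdown mean of 1449052_a_at was 1473 ± 83.4 and its control mean 2283 ± 1.63 (SD, n = 2 each). The log2 difference, taken after adding a pseudocount of 20.01 units, was -0.63 ± 0.08 (SE), a fold of 1.54 (limma, adjusted p = 0.00268). For 1418351_a_at the knockdown mean was 754 ± 23.7 and the control mean 1376 ± 19.7, a log2 difference of -0.85 ± 0.08, or 1.80-fold (limma, adjusted p = 0.0011). Only 50 of the 13576 tested probe sets had a difference this far down or further, 1418351_a_at included. The fall of 1418351_a_at was larger than that of 1449052_a_at by 0.23 on the log2 scale, against at most 0.05 between the arrays of a group for the same quantity. With 2 against 2 arrays no exact permutation test can go below 0.333, which is the p it gave here (0.394 adjusted over the 13 pairs of probe sets of 1 gene). Names ending in _a_at mark probe sets that read several transcripts of 1 gene, and which Dnmt3b isoforms each reads is not given in the sources used here.

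Dnmt3a was read by 5 probe sets, of which the 2 brightest fell, 2 dimmer ones were lower without passing the test and the dimmest differed in sign. The brightest, 1423064_at, had 585 and 679 signal units in the knockdown, against 1088 and 1035 in the control. The second, 1423066_at, had 333.0 and 332.5 in the knockdown, against 589 and 617 in the control. Neither overlapped between the groups. The knockdown mean of 1423064_at was 632 ± 66.5 and its control mean 1061 ± 37.8 (SD, n = 2 each). They differed by -0.73 ± 0.10 (SE) on the log2 scale, or 1.66-fold (limma, adjusted p = 0.00366). For 1423066_at the knockdown mean was 333 ± 0.354 and the control mean 603 ± 19.7, a difference of -0.82 ± 0.09, or 1.77-fold (limma, adjusted p = 0.00189). The 2 probe sets differed from each other by 0.09 in this value, less than the 0.21 between arrays of a group, so their falls could not be told apart.

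The 3 other Dnmt3a probe sets had lower signals than these 2. Only 1460324_at was below the median signal of the probe sets on an array, which was 46.6 to 50.05 units. Probe set 1423065_at had 96.8 and 125.9 signal units in the knockdown, against 159.5 and 143.8 in the control, a log2 difference of -0.39 with a 95% interval of -0.72 to -0.06 (limma, adjusted p = 0.122). Probe set 1423063_at had 118.7 and 114.1 in the knockdown, against 141.9 and 143.2 in the control, a log2 difference of -0.25 with an interval of -0.52 to 0.02 (adjusted p = 0.205). In both the knockdown arrays were the lower ones. Probe set 1460324_at, the dimmest, had 42.2 and 32.0 in the knockdown, against 28.6 and 28.3 in the control, a log2 difference of 0.23 with an interval of -0.15 to 0.62 (adjusted p = 0.41). Here both knockdown arrays were above the control arrays, with all 4 signals within 20 units of the filter level. The pseudocount shrinks differences, most at low signals. With 5 units in its place the 3 differences were -0.44, -0.28 and 0.32, and with 50 units -0.33, -0.21 and 0.15. No call changed. The log2 differences of 1423066_at and 1423063_at differed by 0.57, against at most 0.05 between the arrays of a group for the same quantity, and those of 1423066_at and 1460324_at by 1.05, against at most 0.26. The exact permutation p was again 0.333, the smallest possible, for each. Some other pairs lay nearer to this spread or within it. Between 1423065_at and 1460324_at the difference was 0.62, against at most 0.58 between arrays of a group. Between 1423066_at and 1423065_at it was 0.43, against at most 0.32. For 1423065_at and 1423063_at it was 0.14, against at most 0.37. When the 5 were averaged on the log2 scale, Dnmt3a differed by -0.39 (limma with 1 value per gene, adjusted p = 0.0243). Which Dnmt3a transcripts each of the 5 reads is not given in the sources used here.

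**Figure D2:**
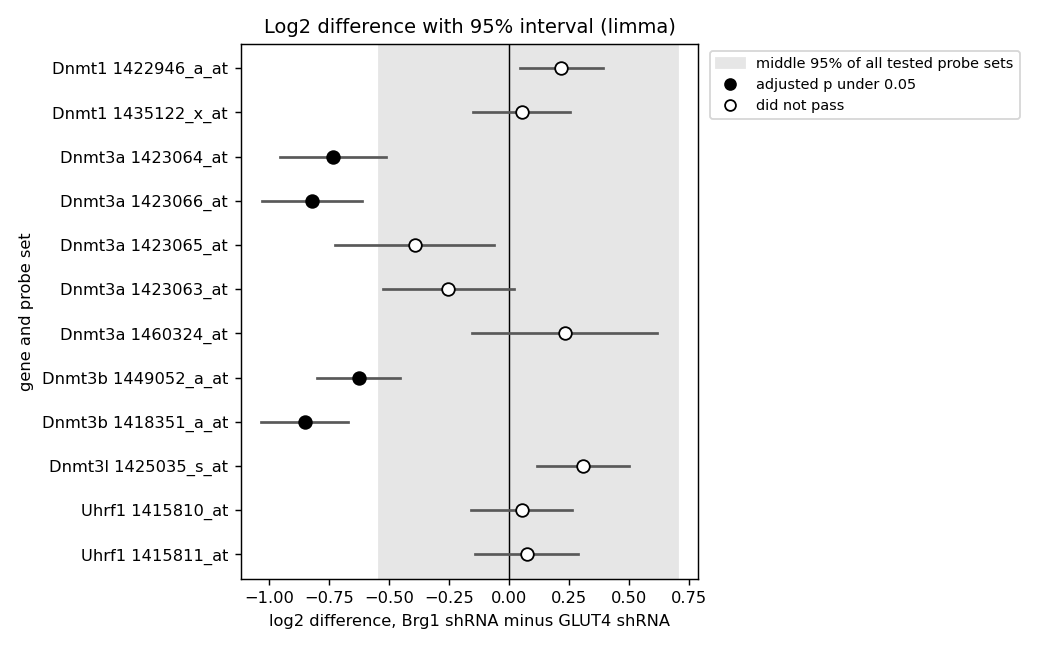
Log2 difference between Brg1 shRNA and GLUT4 shRNA (x axis) for each probe set (y axis), with its 95% interval from limma; filled points passed at an adjusted p under 0.05, and the grey band holds the middle 95% of all 13576 tested probe sets (-0.54 to 0.70). The 4 filled points, of Dnmt3a and Dnmt3b, lie left of the band, and these 4 stayed below 0 under every scaling run; the other 8 lie inside it.

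Dnmt3l, whose product stimulates the de novo enzymes, did not share their direction. Its single probe set, 1425035_s_at, had 1023 and 1079 signal units in the knockdown, against 817 and 877 in the control, without overlap. The knockdown mean was 1051 ± 39.2 and the control mean 847 ± 42.7 (SD, n = 2 each), 0.31 ± 0.08 (SE) apart on the log2 scale with a 95% interval of 0.11 to 0.50 (limma, adjusted p = 0.0569). With 1 probe set per gene in the fit, which tests fewer features, the same difference passed (adjusted p = 0.0359). The interval of Dnmt3l lies wholly above those of the 4 called probe sets of Dnmt3a and Dnmt3b. The ending _s_at marks probe sets that can bind transcripts of more than 1 gene, although the annotation names only Dnmt3l.

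Dnmt1 and Uhrf1, the maintenance pair, did not pass the test. Dnmt1 had 1314 and 1337 signal units in the knockdown on probe set 1422946_a_at, against 1127 and 1149 in the control. These did not overlap, and the knockdown mean was 1325 ± 16.3 and the control mean 1138 ± 15.6 (SD, n = 2 each), a log2 difference of 0.22 with a 95% interval of 0.04 to 0.39 (limma, adjusted p = 0.106). Its second probe set, 1435122_x_at, of a type that can cross-hybridise, had 642 and 652 in the knockdown, against 648 and 599 in the control. The groups overlapped there, with a difference of 0.05 and an interval of -0.15 to 0.25 (adjusted p = 0.736). Uhrf1 had 980 and 983 in the knockdown on 1415810_at, against 883 and 1015 in the control, a difference of 0.05 with an interval of -0.16 to 0.26 (adjusted p = 0.752). On 1415811_at it had 686 and 697 in the knockdown, against 616 and 699 in the control, a difference of 0.07 with an interval of -0.14 to 0.29 (adjusted p = 0.652). In both Uhrf1 probe sets the 2 knockdown values lay between the 2 control values. The upper ends of these intervals allow rises of up to 0.39 on the log2 scale, and their lower ends exclude falls as large as those of the 4 called Dnmt3a and Dnmt3b probe sets.

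Directions are relative to the deposited scale of the arrays. The 18 hybridisation spike-in probe sets, for transcripts added after labelling and not a measure of the cells' RNA content, had a mean log2 value of 9.37 in the knockdown and 9.68 in the control. On single arrays it was 9.51 and 9.24 in the knockdown, against 9.73 and 9.64 in the control. Spike-in scaling therefore also moves arrays of the same group against each other. With the arrays scaled to these spike-ins, the median difference of all tested probe sets was 0.28, against 0.01 as deposited. With that scaling 1418351_a_at of Dnmt3b still fell (-0.55, adjusted p = 0.0356). The other 3 calls were lost, with -0.32 for 1449052_a_at of Dnmt3b (adjusted p = 0.193), and -0.43 and -0.52 for 1423064_at and 1423066_at of Dnmt3a (adjusted p = 0.115 and 0.0648). Relative to the shifted median these 4 differences were -0.83, -0.60, -0.71 and -0.81. Dnmt3l (0.61, adjusted p = 0.0185) and 1422946_a_at of Dnmt1 (0.52, adjusted p = 0.0395) were higher with this scaling, and 1423063_at of Dnmt3a changed sign to 0.016. Relative to the shifted median, Dnmt3l and this Dnmt1 probe set stood at 0.33 and 0.24. With quantile normalization these 2 also passed as higher (0.34 and 0.28, adjusted p = 0.0421 and 0.0497), and with median centring they did not (0.26 and 0.17, adjusted p = 0.0891 and 0.218).

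**Figure D3:**
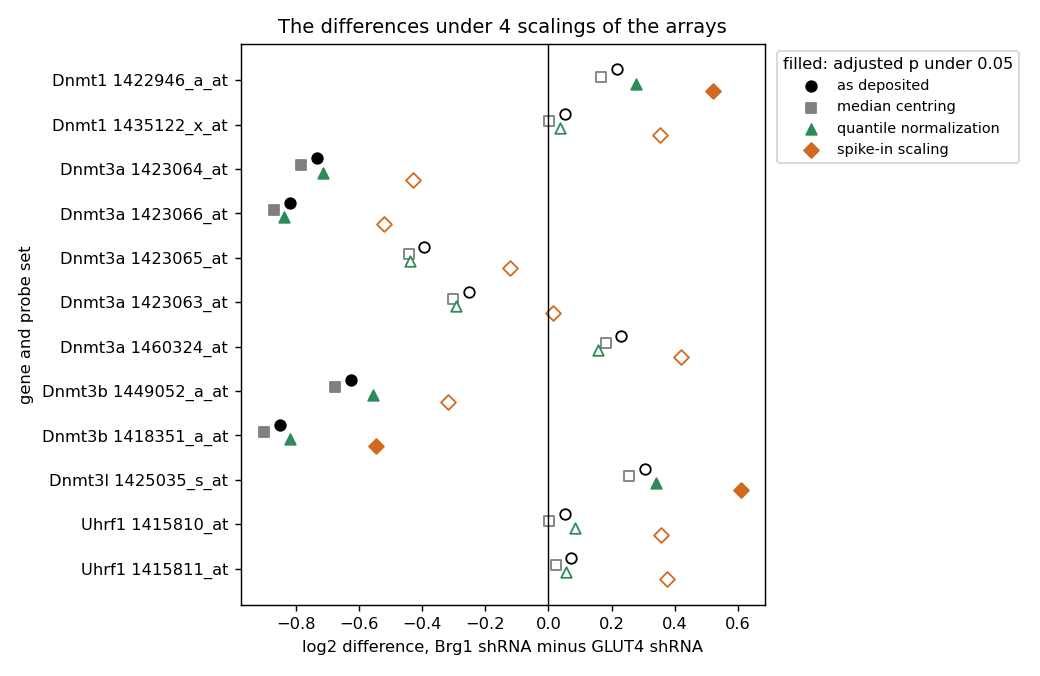
Log2 difference between Brg1 shRNA and GLUT4 shRNA (x axis) of the 12 probe sets (y axis) under 4 scalings of the arrays; filled symbols passed at an adjusted p under 0.05. Spike-in scaling (diamonds) shifts every probe set to the right; the called Dnmt3a and Dnmt3b probe sets stay below 0 under all 4, while 1423063_at of Dnmt3a crosses 0.

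The genes whose profile over the 4 arrays was most like that of a member were found by the root mean square difference of log2 values, each centred on its own mean, among 7814 other genes with 1 probe set each. For Dnmt3a (1423064_at) they were Fxyd6 (0.02), a regulator of the sodium pump, Fn1 (0.03), which encodes fibronectin, and Pim2 (0.04), a serine/threonine kinase gene, against a median of 0.40 over all genes compared. Their log2 differences were -0.78, -0.70 and -0.79. For Dnmt3b (1449052_a_at) they were F2r (0.01), the thrombin receptor gene, Klhdc2 (0.02) and Marcks (0.02), a substrate of protein kinase C, against a median of 0.35, with log2 differences of -0.61, -0.63 and -0.62. For Dnmt3l they were Pfn2 (0.0042), a profilin gene, Fam120b (0.0048) and Ddost (0.0084), a subunit of oligosaccharyltransferase, against a median of 0.18, with differences of 0.30, 0.31 and 0.30. With 4 arrays in 2 groups, this measure is set mainly by the size of the difference between the groups.

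Around the 5 genes, 5 lists of the DNA methylation pathway held 66 genes with a probe set, each represented by its brightest, of which 50 were tested. Of these 50, 7 were higher and 2 lower in the knockdown and the rest did not pass, where 6.97% of the 7815 tested genes were called higher and 3.06% lower, with a median log2 difference of 0.04. These counts rest on single arrays. They were 2 and 0 without knockdown replicate 2, 3 and 0 without control replicate 1, 2 and 0 without control replicate 2, and 6 and 6 without knockdown replicate 1. Each of the 9 calls was lost without at least 1 array and without the filter on low values, whereas the Dnmt3a and Dnmt3b calls were kept in all of these.

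Among genes for the oxidation and removal of methylcytosine, 3 of 9 tested were higher, 0 lower and 6 did not pass, with a median of 0.10. Gadd45g, a stress-induced gene linked to active demethylation, had 64.3 and 71.3 signal units in the knockdown, against 31.9 and 35.4 in the control, a difference of 0.71 ± 0.15 in log2 units (SE; limma's adjusted p = 0.0233). Gadd45b rose by 0.74 ± 0.18 (adjusted p = 0.0399) and the cytidine deaminase gene Apobec1 by 0.53 ± 0.14 (adjusted p = 0.0473). The call of Gadd45b was lost with quantile normalization (adjusted p = 0.0526), and that of Apobec1 with quantile normalization (adjusted p = 0.0666) and with median centring (adjusted p = 0.0529). Tet1, which oxidises methylcytosine, had 361 and 379 in the knockdown, against 366 and 325 in the control, a difference of 0.10 (adjusted p = 0.583), and was named after its values were seen. Idh1, an isocitrate dehydrogenase gene, differed by -0.15 (adjusted p = 0.322).

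Of 6 tested readers of methylated DNA, 1 was higher, 0 lower and 5 did not pass, with a median of 0.24. The call was Klf4 (0.76 ± 0.13, limma, adjusted p = 0.0127), a pluripotency factor that can also bind methylated CpG. Zfp57, a zinc finger protein that binds methylated imprint control regions, differed by 0.57 (adjusted p = 0.0659), the methyl-CpG binding genes Mbd2 by 0.44 (adjusted p = 0.0812) and Mbd1 by -0.22 (adjusted p = 0.32).

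Among 22 tested partners of the methyltransferases and Uhrf1, 1 was higher, 2 lower and 19 did not pass, with a median of 0.02. Hells, an SNF2-family remodeller needed for normal DNA methylation, had 889 and 784 signal units in the knockdown, against 1093 and 1144 in the control, a difference of -0.41 ± 0.09 in log2 units (SE; limma's adjusted p = 0.0266). The histone deacetylase gene Hdac2 fell by 0.53 ± 0.14 (adjusted p = 0.0469), and the DNA ligase gene Lig1 rose by 0.47 ± 0.09 (adjusted p = 0.0153). With spike-in scaling Hells and Hdac2 stayed below 0 without passing (-0.11 and -0.25, adjusted p = 0.71 and 0.411). Daxx, a histone chaperone gene, differed by 0.33 (adjusted p = 0.0573).

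For the supply of methyl groups, 1 of 10 tested genes was higher, 0 lower and 9 did not pass, with a median of 0.05. Mtrr, methionine synthase reductase, had 425 and 436 signal units in the knockdown, against 314 and 252 in the control, a difference of 0.58 ± 0.12 in log2 units (SE; limma's adjusted p = 0.0213). The methyltransferase gene Gnmt differed by -0.50 (adjusted p = 0.0819), the serine hydroxymethyltransferase gene Shmt2 by -0.28 (adjusted p = 0.104) and Mtap, of the methionine salvage pathway, by 0.28 (adjusted p = 0.104).

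Of 14 germline genes known to be silenced by promoter methylation, only 5 reached the filter, and of these 1 was higher, 0 lower and 4 did not pass, with a median of 0.36. Ddx4, an RNA helicase gene of germ cells, had 130.9 and 121.4 signal units in the knockdown, against 78.1 and 77.0 in the control, a difference of 0.58 ± 0.13 in log2 units (SE; limma's adjusted p = 0.0268). Sycp3, of the synaptonemal complex, had 79.9 and 51.7 in the knockdown, against 106.4 and 118.9 in the control, a difference of -0.65 (adjusted p = 0.0557). Tex19.1 and Dazl, an RNA-binding protein gene of germ cells, differed by 0.36 and 0.45 (adjusted p = 0.0753 and 0.119). Dazl had 33.3 and 32.3 signal units in the knockdown, against 18.6 and 18.7 in the control. Its control signals were below the filter level of 23.9 units, so it was tested only through its knockdown signals. The median over the 5 tested genes includes Dazl. DNA methylation itself was not measured.

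**Figure D4:**
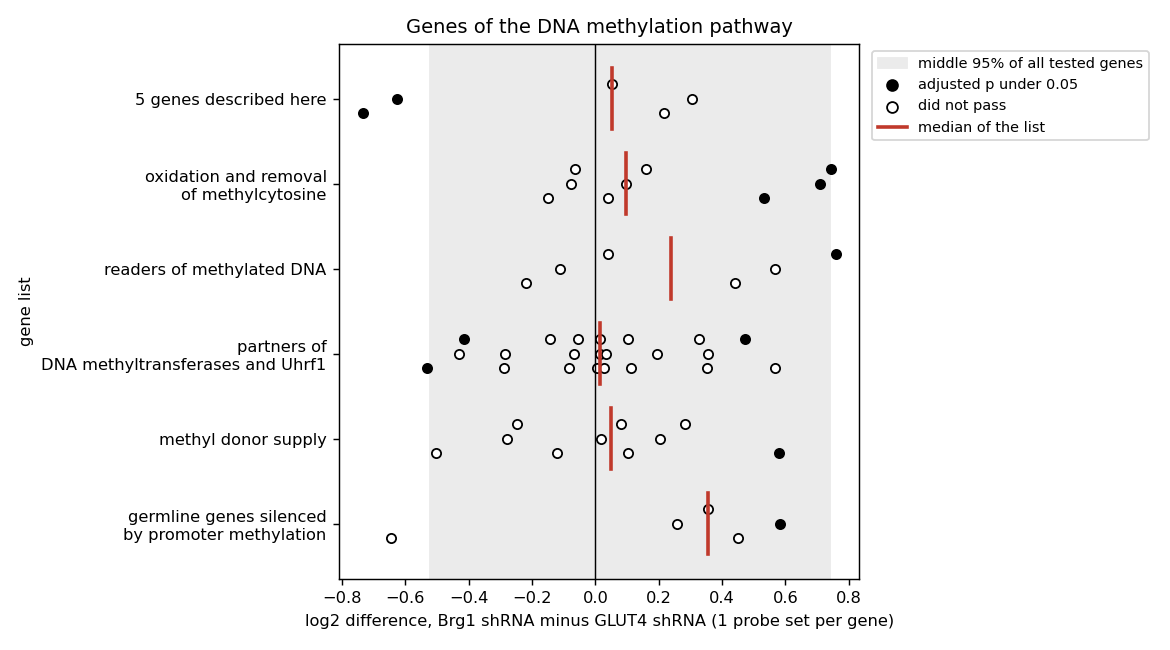
Log2 difference between Brg1 shRNA and GLUT4 shRNA (x axis) of the 5 genes and of the tested genes of each pathway list (y axis), 1 probe set per gene; filled points passed at an adjusted p under 0.05, red bars are medians and the grey band holds the middle 95% of all 7815 tested genes. Dnmt3a (-0.73), Dnmt3b (-0.63) and, at the band's edge (-0.52), Hdac2 (-0.53) are the filled points left of the band, and all 3 stayed below 0 under all 4 scalings. Klf4 (0.76) and, at the band's other edge (0.741), Gadd45b (0.744) are the filled points right of it. Sycp3 (-0.65) lies left of the band without passing.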

How the data were processed

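The authors deposited linear signal intensities, 1 for each probe set on each array, made with GCOS per the submitters' processing notes; the version, algorithm and target level are not given here. The number of arrays limits the precision. Of 22690 probe sets, 64 were controls; of the rest, 20380 had 1 annotated gene, 691 several and 1555 none. Symbols were updated by Entrez ID through RefSeq (20351 matched). Log2(signal + 20.01), a pseudocount of 10% of the trimmed mean, was computed for probe sets with a mean log2 value at or above the 40th percentile (13576). Knockdown and control were compared with limma 3.58.1 in R 4.3.3 (lmFit, eBayes with an intensity trend, two-sided), with Benjamini-Hochberg adjustment over all probe sets tested and a threshold of 0.05. A gene in a list is represented by its probe set with the highest mean, _x_at only where there is no other. Arrays were simulated with the same 13576 probe sets, each given this comparison's pooled spread at its signal level. The fit called 48% of 50 falls of 0.6 and 92% of 50 falls of 1 on the log2 scale. For 50 rises of each size it called 66% and 98%, and 6 unchanged probe sets were called. A smaller share was changed there than the 9.13% called in the data, and the adjustment depends on that share.

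Members, lists and tests were chosen with earlier results of these data known. Named genes are every member probe set, the shRNA targets, up to 4 tested genes per list with the smallest p, and the 3 nearest profiles to Dnmt3a, Dnmt3b and Dnmt3l; the cell type markers named were chosen after their values were seen. Alternatives changed the pseudocount, filter, scaling, variance model, probe set choice and replicate block, and left out each array.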

Additional observations from a re-analysis of the deposited data

How the results depend on the processing

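Each of the 2 Dnmt3b and 2 brightest Dnmt3a probe sets kept its direction under all alternatives run, and its call under all except spike-in scaling, where 1 of the 4 member calls was left and 2 member probe sets were higher. There 1449052_a_at of Dnmt3b had -0.32, 1423064_at and 1423066_at of Dnmt3a -0.43 and -0.52, and 1423063_at of Dnmt3a reversed to 0.016; Dnmt3l (0.61) and 1422946_a_at of Dnmt1 (0.52) passed. Over all probe sets 2223 were then higher and 60 lower, and in the lists 16 and 0. With quantile normalization 2 member probe sets were higher, Dnmt3l (0.34) and 1422946_a_at of Dnmt1 (0.28). Dnmt3l also passed with 1 probe set per gene and with a gene's probe sets averaged (0.31 in both), where 4 and 6 list genes were lower. Median centring gave 830 lower probe sets and 4 lower list genes. Without the filter 323 were higher and 129 lower, with 0 and 0 in the lists. There limma's adjustment covers more probe sets, and its variance model is fitted again over all of them. Without the intensity trend the counts were 518 and 229, and 3 and 0 in the lists. The cause of these shifts was not tested.

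Leaving out 1 array in turn, 377 to 910 probe sets were higher and 174 to 783 lower, 2 to 6 list genes were higher and 0 to 6 lower, and 4 member probe sets stayed lower. The group with 1 array is taken to vary as the other does. Without control replicate 1 the Uhrf1 probe sets 1415810_at and 1415811_at reversed to -0.047 and -0.015, and their ranges were -0.05 to 0.15 and -0.015 to 0.16. Without control replicate 2, 1435122_x_at of Dnmt1 reversed to -0.0024, with a range up to 0.11. None of these had passed the test.

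The replicate numbers share only a number, since 2 pairs cannot show a pairing. With the replicate block 900 probe sets were higher and 607 lower, 8 and 3 list genes, and the 4 member calls were the same, with no other member call changed. The deviations of same-numbered arrays correlated at -0.14 over 13576 probe sets, so a crossed pairing was added after seeing the data. As a replicate block the crossed pairing gave 1177 higher and 881 lower probe sets, 11 and 4 list genes, and 1 higher member probe set (Dnmt3l, 0.31). With 2 arrays per group, crossing only reverses the sign of the correlation. A block picked by that sign tends to raise the number of calls, so these counts cannot show a pairing or a rise of Dnmt3l.

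With 2 arrays per group the spread is measured between duplicate infections of 1 line, and dim probe sets such as 1460324_at limit what can be said of Dnmt3a. Detection calls were not used here.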
